A study of Mus musculus with 30 samples.

Results

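The amygdala of mice killed 2 h after auditory fear conditioning (FC) was compared with the amygdala of home cage mice (HC). The members are the 6 FC and the 6 HC amygdala libraries, 12 of the 30 libraries of the series, and the 13493 genes, of 23303 entries in the expression table, whose mean over these 12 reached 0.5 FPKM. FPKM is a read count divided by transcript length and library depth. All mice were adult male wild-type C57BL/6J aged 2 to 3 months. FC mice received 5 pairings of a tone with a foot shock and had no earlier immobilization, and HC mice were handled, left the vivarium and were killed under basal conditions without tone or shock. Each library is a pool of bilateral punches from 2 mice of 1 group, centred on the basolateral nucleus but able to include other amygdala subregions, so 12 mice per group give 6 values and the spread between single mice was not measured. The groups differ in tone, shock, chamber and habituation at once, and no group received tones or shocks alone.

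The basolateral amygdala is where a tone and a shock become associated, and its principal neurons are glutamatergic cells under control of local GABA neurons. Neuronal firing switches on immediate early genes, which encode transcription factors such as FOS family members, and these are followed by effector genes that act on synapses, signaling and secretion. Neurons that make more secreted and membrane proteins also load the endoplasmic reticulum (ER), where chaperones fold them, and stress hormones act through the glucocorticoid receptor in the same cells. RNA in a punch is bulk tissue RNA, so fewer cells of a type and less RNA per cell cannot be told apart.

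FC libraries held 24944474 to 31366290 sequences (median 30327647) and HC libraries 24165634 to 27491655 (median 27042585), and correlations between libraries were 0.966 to 0.9898. Libraries did not all resemble their group. For genes whose longest transcript exceeds 10 kb, the mean deviation of a library on the log2 scale was -0.14 and -0.09 in HC libraries 1 and 2, 0.25 to 0.29 in HC libraries 3 to 6 and -0.29 to -0.06 in FC. HC libraries 1 and 2 thus lay with the FC libraries in this score of long transcripts. Lists of channels, receptors, chromatin regulators, cadherins, motors, synaptic genes and growth factors are therefore given also without those 2. Genes of tissue outside the punch target also differed by library in both groups. Ttr, the thyroid hormone carrier of the choroid plexus, was at 561, 1027 and 293 FPKM in HC libraries 1 to 3 and at 0.837 to 2.95 FPKM in HC libraries 4 to 6, and it was at 1.46 and 1.54 FPKM in FC libraries 1 and 2 and at 83.2 to 881 FPKM in FC libraries 3 to 6. The pituitary hormone genes Gh and Pomc stood at 14.3 and 12.9 FPKM in FC library 6, while Gh did not pass 0.168 FPKM and Pomc did not pass 1.59 FPKM in the other 11. The part of such tissue in the results was not tested. The summed level of 10 markers of basolateral neurons was 733 to 797 FPKM in HC and 733 to 816 FPKM in FC. This sum was not set beside other tissue, and its member Ppp1r1b is also a striatal marker here. It therefore cannot show where the punches lay.

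**Figure D1:**
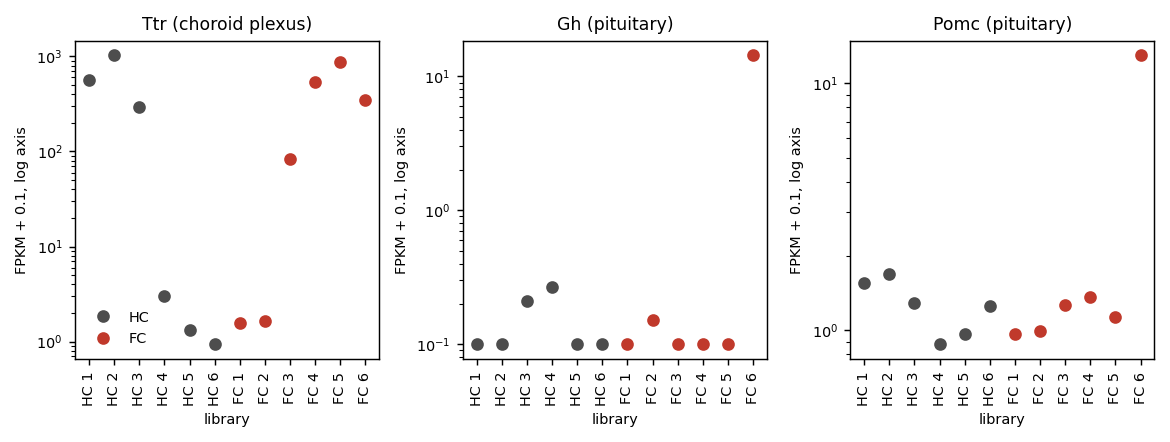
FPKM + 0.1 of Ttr, Gh and Pomc on log axes in each of the 6 HC and 6 FC amygdala libraries, 1 point per library. Ttr is high in HC libraries 1 to 3 and FC libraries 3 to 6, and Gh and Pomc are high in FC library 6.

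Differences between FC and HC were small for most genes, and the threshold of an adjusted p under 0.05 was passed by 2 of the 13493 genes. None was higher in FC (0%) and 2 were lower (0.0148%), Dcx and a merged entry that holds Meg3. Before adjustment, limma gave a p under 0.05 to 1010 genes on the higher side (7.49%) and to 1083 on the lower side (8.03%), 15.5% in all. Such genes are called nominally higher or nominally lower in what follows, which is a description and not a call. Without HC libraries 1 and 2 these shares were 8.10% and 9.38%. At an adjusted p under 0.10, a limit chosen after the values were seen, 110 genes were higher (0.815% of genes tested) and 210 were lower (1.56%), together 2.37%. This wider set depended on single libraries. Without HC library 1 the number was 198 higher and 547 lower, and it was 0 higher and 1 to 3 lower when HC library 4, 5, 6 or FC library 1, 2, 4 was left out. In 187 genes (1.39%) the 6 FC values and the 6 HC values did not overlap, 78 of them higher (0.578%) and 109 lower (0.808%) in FC. An exact permutation test of 6 against 6 libraries cannot go below p = 0.00216, and over all genes its smallest adjusted p was 0.156. Values of single genes are therefore given beside their adjusted p from limma, and a gene is said to have changed only where that p was under 0.05.

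**Figure D2:**
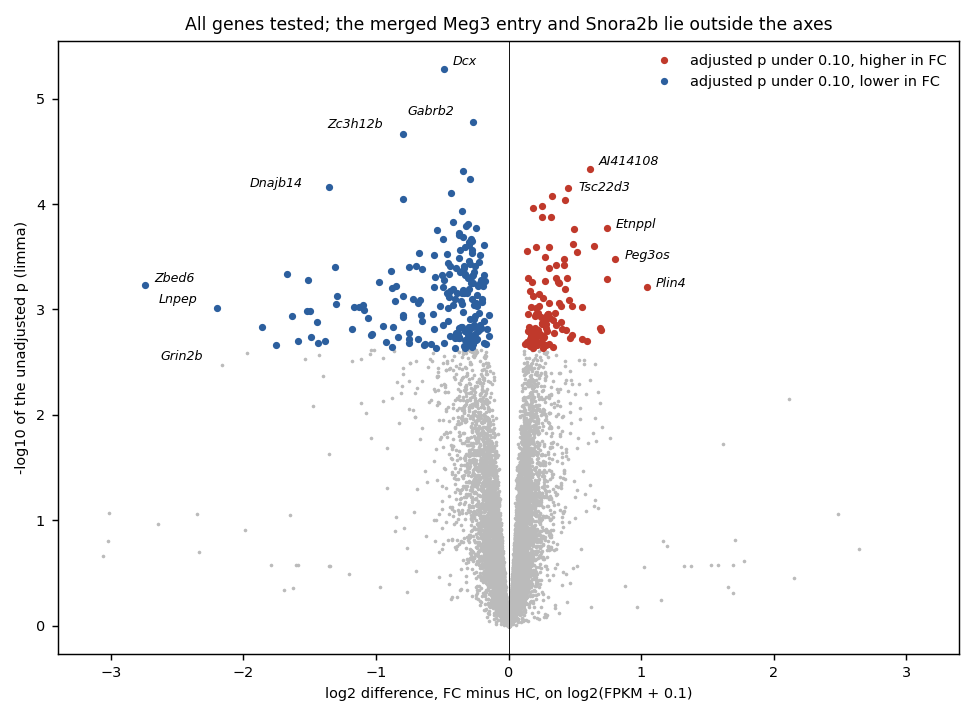
The log2 difference of each gene (FC minus HC, on the log2(FPKM + 0.1) scale) against -log10 of its unadjusted p in limma, 1 point per gene. Colored points have an adjusted p under 0.10, with 110 higher and 210 lower in FC, and the median size of the difference is 0.27 in the higher and 0.37 in the lower genes. The merged Meg3 entry, listed at 0 in all FC libraries, and Snora2b at 4.68 lie outside the axes.

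The 12 genes with the smallest p among those whose FC values all exceeded the HC values included an astrocyte enzyme, a nucleotide synthesis enzyme and a growth factor. Etnppl, which encodes an enzyme of phosphoethanolamine breakdown found in astrocytes, was at 1.88 to 3.42 FPKM (median 2.46) in HC and at 3.54 to 5.70 FPKM (median 3.85) in FC, a log2 difference of 0.74 with SE 0.15 and an adjusted p of 0.0762. Impdh2, the rate-limiting enzyme of guanine nucleotide synthesis, was at 12.6 to 15 FPKM in HC and at 15.6 to 17.3 FPKM in FC. The lowest FC library lay above the highest HC library in both genes. The same held for Pdgfa, a ligand of platelet-derived growth factor receptors, at 17.5 to 19.1 FPKM in HC and 20.1 to 21.9 FPKM in FC, and for the ETS transcription factor Etv5, at 15.3 to 17.9 FPKM in HC and 18.1 to 20.8 FPKM in FC. Tnfrsf12a, the receptor of the cytokine TWEAK, was at 0.926 to 1.34 FPKM in HC and 1.45 to 1.96 FPKM in FC. Mfsd2a, which carries lysophospholipids across the blood-brain barrier, was at 5.53 to 7.93 FPKM in HC and 8.47 to 10.2 FPKM in FC. Without HC libraries 1 and 2 Etnppl was at a log2 difference of 0.79 and Mfsd2a at 0.40. The direction of these genes could not turn there, since they were picked for groups that do not overlap.

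AI414108 was at 7.17 to 8.52 FPKM (median 7.86) in HC and 9.22 to 14.4 FPKM (median 12.7) in FC, a log2 difference of 0.61 with SE 0.11. RefSeq gives this symbol as another name of Igsf9b, a cell adhesion gene of inhibitory synapses, but the table holds a separate Igsf9b entry, which lay at a log2 difference of -0.45 (adjusted p = 0.50). Smim3, 2310044G17Rik and the merged entry of 2900008C10Rik and Bcor, a transcriptional corepressor, were also among the 12 genes, with log2 differences of 0.49, 0.14 and 0.30. All those named here, with the splicing regulator Tra2a described below, had an adjusted p of 0.0762.

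Dcx fell after fear conditioning. Its product, doublecortin, binds microtubules in young migrating neurons, and the gene spans 143855842 to 143933311 on the minus strand of chromosome X (GRCm38). Dcx was at 4.49 to 5.81 FPKM (median 4.97) in HC and at 3.29 to 3.88 FPKM (median 3.58) in FC, with means of 5.04 ± 0.528 and 3.56 ± 0.204 FPKM (SD, n = 6), and every FC library lay under every HC library. The log2 difference was -0.49 with SE 0.07 and an adjusted p of 0.0350. Leaving out HC library 4, 5 or 6 or FC library 1, 2, 3 or 6 brought the adjusted p to 0.0651 to 0.171, and with a score of long transcripts per library as a covariate the difference was -0.33 with an adjusted p of 0.329. Of 11 markers of young neurons 2 were nominally lower and 0 nominally higher, Dcx itself and the transcription factor Sox4 at a log2 difference of -0.27, while Sox11 was at 0.13 and Dpysl3 at -0.11. The median over the 11 was 0.00, as against 0.01 over all genes.

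Gabrb2, the beta-2 subunit of the GABA-A receptor, came next in order of p at 28.6 to 32.6 FPKM (median 30.5) in HC and 24.2 to 27.3 FPKM (median 25.2) in FC. Its log2 difference was -0.27 with SE 0.04, an adjusted p of 0.0725 and no overlap. Zc3h12b, of a family of RNA-degrading zinc finger proteins, was at 2.18 to 3.4 FPKM in HC and 1.19 to 2.01 FPKM in FC. Slc8a1, the sodium-calcium exchanger NCX1, was at 10.8 to 12.7 FPKM in HC and 8.73 to 10.2 FPKM in FC. The genes of this paragraph were picked from those whose FC values all lay under the HC values. Their lack of overlap follows from that choice. The ER-resident co-chaperone Dnajb14 was at 3.71 to 9.68 FPKM (median 8.86) in HC and 1.82 to 3.49 FPKM (median 2.76) in FC, a log2 difference of -1.35 with no overlap. Uggt2, a sensor of glycoprotein folding, was at 3.75 to 4.76 FPKM in HC and 3.09 to 3.58 FPKM in FC. Ankrd28, a regulatory subunit of protein phosphatase 6, Abca8b, Zkscan2, Lactb2 and Sestd1 had log2 differences of -0.34, -0.44, -0.79, -0.42 and -0.30. Without HC libraries 1 and 2, Gabrb2 was at -0.30 and Dnajb14 at -1.73, and with the score of long transcripts they were at -0.18 and -0.48.

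**Figure D3:**
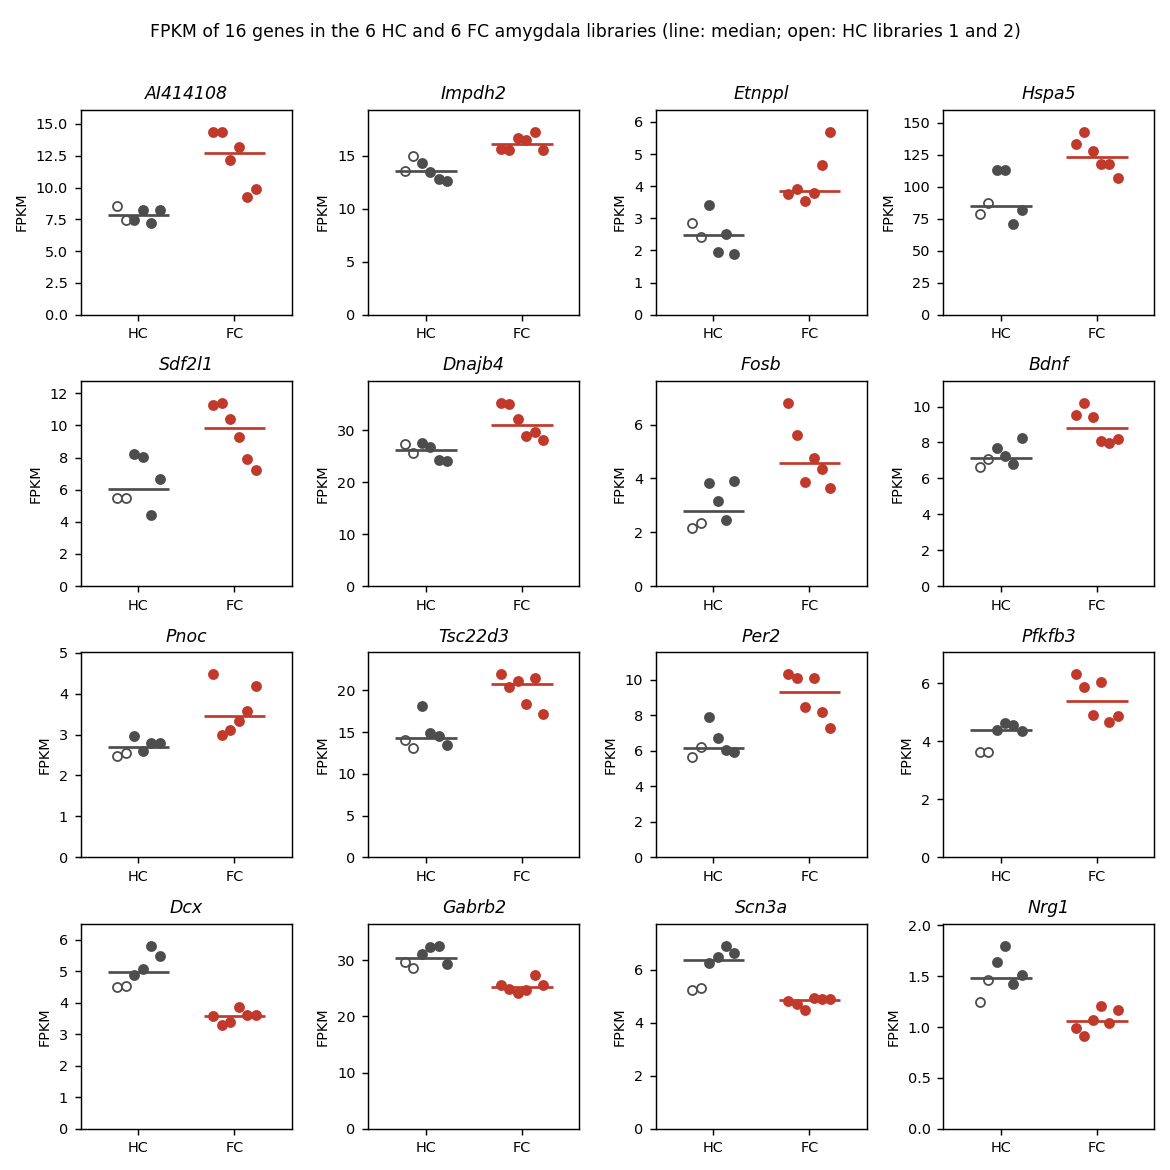
FPKM of 16 genes in the 6 HC (grey) and 6 FC (red) amygdala libraries, 1 point per library with the group median as a line and HC libraries 1 and 2 as open points. AI414108, Impdh2, Etnppl, Dnajb4, Pnoc and Pfkfb3 have every FC library above every HC library, Dcx, Gabrb2, Scn3a and Nrg1 have every FC library under every HC library, and Hspa5, Sdf2l1, Fosb, Bdnf, Tsc22d3 and Per2 overlap.

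Genes of protein folding in the ER were the group, with heat shock proteins, in which the largest share of members was nominally higher in FC. The factor ATF6 and its partners read the ER stress response element (ERSE), written CCAAT, then 9 bases of any kind, then CCACG, in the promoters of ER chaperones. Among promoter windows of RefSeq on GRCm38.p6, each of 250 bases before and 50 bases after a gene's start, 37 of 27025 genes held this motif on either strand (0.137%). Windows were given for 18 of the 22 ER chaperones and folding enzymes tested, and 7 of these 18 (38.9%) held it, namely Hspa5, Hsp90b1, Calr, Canx, Pdia6, Dnajc3 and Creld2. The windows of Hspa5, whose product BiP is the main HSP70 chaperone of the ER lumen, and of Syvn1, the ubiquitin ligase that removes misfolded ER proteins, are printed to show the element, in capitals. It lies 47 to 65 bases before the start in Hspa5 and 26 to 44 bases before the start in Syvn1.
Hspa5 (chr2:34771840-34772139, plus strand): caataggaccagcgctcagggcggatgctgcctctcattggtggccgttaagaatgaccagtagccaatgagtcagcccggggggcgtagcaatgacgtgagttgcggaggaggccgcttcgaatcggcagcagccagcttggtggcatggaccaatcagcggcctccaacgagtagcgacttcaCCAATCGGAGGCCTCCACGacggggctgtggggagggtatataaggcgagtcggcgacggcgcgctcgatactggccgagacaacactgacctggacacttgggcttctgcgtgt
Syvn1 (chr19:6046326-6046625, plus strand): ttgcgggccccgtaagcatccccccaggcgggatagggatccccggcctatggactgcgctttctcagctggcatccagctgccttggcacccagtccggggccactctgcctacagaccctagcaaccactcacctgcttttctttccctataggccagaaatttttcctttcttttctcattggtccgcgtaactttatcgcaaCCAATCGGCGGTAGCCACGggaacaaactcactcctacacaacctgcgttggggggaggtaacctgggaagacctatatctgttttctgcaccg

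Of the 22 ER chaperones and folding enzymes, 13 were nominally higher in FC and 1 was nominally lower, as against 7.49% and 8.03% of all genes, and their median log2 difference was 0.18 as against 0.01. None of the 22 passed an adjusted p of 0.05, and 3 passed 0.10. Hspa5 was at 70.7 to 113 FPKM (median 84.5) in HC and at 107 to 143 FPKM (median 123) in FC, a log2 difference of 0.47 with SE 0.11 and an adjusted p of 0.0833, and 2 HC libraries lay above the lowest FC library. Sdf2l1, which keeps BiP cycling, was at 4.44 to 8.25 FPKM in HC and 7.20 to 11.4 FPKM in FC (adjusted p = 0.0955). The disulfide isomerases Pdia3 and P4hb were at log2 differences of 0.20 and 0.13, and only P4hb had no overlap. Of the 7 members with the ERSE 6 were nominally higher. The count of higher members was 13 without HC libraries 1 and 2 as well and 12 to 15 when any single library was left out.

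Smaller shares were nominally higher in the pathway around these chaperones. Of 24 sensors, transcription factors and degradation genes of the unfolded protein response, 5 were nominally higher and 0 nominally lower (median 0.04). Herpud1, which sits in the degradation complex, was at 18.7 to 22.6 FPKM in HC and 22.3 to 26.3 FPKM in FC, a log2 difference of 0.27, and the transcription factor Xbp1 was at 21.7 to 29.0 FPKM in HC and 27.9 to 37.5 FPKM in FC, a log2 difference of 0.35. Creb3l1, an ER-anchored transcription factor, was at 0.37 and Syvn1 at 0.14. Of 32 genes of ER translocation and glycosylation 5 were higher and 0 lower, with Prkcsh, the beta subunit of glucosidase II, at 0.19 (adjusted p = 0.0942) and Magt1, Sec11a and Rpn1 at 0.21, 0.13 and 0.10. Of 32 genes of vesicle coats and ER cargo receptors 1 was higher, Lman2 at 0.11, and 0 were lower, which lies under the share over all genes.

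Of 29 cytosolic and mitochondrial heat shock proteins, 18 were nominally higher in FC and 0 nominally lower, with a median log2 difference of 0.18. None passed an adjusted p of 0.05 and 3 passed 0.10. Dnajb4, a co-chaperone of HSP70, was at 24.1 to 27.5 FPKM (median 26.1) in HC and at 28.0 to 35.2 FPKM (median 31.0) in FC, with no overlap and an adjusted p of 0.0762. Dnajb1, another such co-chaperone, was at 19.5 to 27.4 FPKM in HC and 23.5 to 33.5 FPKM in FC. The HSP90 co-chaperones Chordc1 and Ahsa2 were at log2 differences of 0.34 and 0.43. The count was 13 higher and 1 lower without HC libraries 1 and 2, 12 to 19 higher when single libraries were left out, with 12 without HC library 5, and 9 higher with the score of long transcripts. Chordc1 is shown because its start overlaps matches to the heat shock element, the binding sequence of HSF1, searched as GAA, TTC and GAA with 2 bases of any kind between them. The 3 matches, which overlap each other on both strands, lie from 4 bases before to 18 bases after the start. The element was in 179 of 27025 genes (0.662%). For the list as a whole 23 of 29 members had a window. The element was in 5 of the 23 (21.7%), and 3 of these 5 were nominally higher.
Chordc1 (chr9:18292017-18292316, plus strand): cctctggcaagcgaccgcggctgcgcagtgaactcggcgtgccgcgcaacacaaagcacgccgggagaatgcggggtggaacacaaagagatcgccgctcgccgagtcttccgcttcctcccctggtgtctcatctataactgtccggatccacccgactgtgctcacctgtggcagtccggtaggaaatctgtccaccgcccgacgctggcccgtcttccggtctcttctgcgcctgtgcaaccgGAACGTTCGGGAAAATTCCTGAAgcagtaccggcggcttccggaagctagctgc

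Of 28 immediate early transcription factors 17 had a log2 difference above 0, near the share over all genes, and 8 were nominally higher and 1 nominally lower, with a median of 0.15. Fosb was at 2.15 to 3.90 FPKM (median 2.80) in HC and at 3.63 to 6.81 FPKM (median 4.56) in FC, Fosl2 was at 4.15 to 6.18 FPKM in HC and 6.14 to 7.69 FPKM in FC, and Crem, which encodes activators and repressors of cAMP-responsive genes, was at 4.16 to 4.97 FPKM in HC and 5.09 to 6.91 FPKM in FC. Crem had no overlap, while Fosb and Fosl2 overlapped by the edge of their ranges. Btg2, an antiproliferative gene induced within minutes of stimulation, lay in the other direction at 3.83 to 8.17 FPKM (median 4.40) in HC and 2.79 to 3.73 FPKM (median 3.27) in FC, a log2 difference of -0.53 with no overlap and an adjusted p of 0.114. Dusp1, a phosphatase that ends MAP kinase signals, was likewise at 6.76 to 15 FPKM in HC and 5.11 to 7.26 FPKM in FC, a log2 difference of -0.47 with an adjusted p of 0.192. Of 14 dual-specificity phosphatases 1 was nominally higher, Dusp4 at 0.41, and 1 nominally lower, Dusp1, and Dusp14 and Dusp6 were at 0.11 and 0.20.

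Effector genes of neuronal activity had a larger share on the higher side. Of 39, 15 were nominally higher and 1 nominally lower with a median of 0.16, and 5 passed an adjusted p of 0.10 while none passed 0.05. Bdnf, the neurotrophin of activity-dependent synaptic change, was at 6.64 to 8.27 FPKM (median 7.14) in HC and at 7.99 to 10.2 FPKM (median 8.81) in FC, a log2 difference of 0.28 with an adjusted p of 0.0942. Rgs2, which shortens G protein signals, was at 16.9 to 21.1 FPKM in HC and 21 to 24.9 FPKM in FC, and its groups overlapped only at the edge. Mat2a, which makes S-adenosylmethionine, and Spred2, an inhibitor of Ras signals to ERK, had no overlap at log2 differences of 0.14 and 0.29. The count was 8 higher and 2 lower without HC libraries 1 and 2, and 11 to 19 higher when single libraries were left out, with 11 without FC library 1.

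Sequences of 3 of these genes are shown with the element read by CREB, which in full is TGACGTCA and in its core is TGACGT, as they stand for genes that lay on either side. The full element was in 549 of 27025 windows (2.03%) and the core, which every full element holds, in 2263 (8.37%). Bdnf and Rgs2 hold the core, read on the other strand, in a window, for Bdnf that of 1 of its starts, and Btg2 holds the full element.
Bdnf (chr2:109692186-109692485, plus strand): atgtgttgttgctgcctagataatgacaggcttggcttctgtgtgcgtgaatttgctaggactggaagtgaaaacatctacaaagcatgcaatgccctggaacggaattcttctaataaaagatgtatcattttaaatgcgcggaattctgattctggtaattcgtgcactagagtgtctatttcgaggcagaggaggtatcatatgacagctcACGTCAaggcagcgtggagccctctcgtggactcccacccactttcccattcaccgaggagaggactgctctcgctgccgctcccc
Rgs2 (chr1:144004100-144004399, minus strand): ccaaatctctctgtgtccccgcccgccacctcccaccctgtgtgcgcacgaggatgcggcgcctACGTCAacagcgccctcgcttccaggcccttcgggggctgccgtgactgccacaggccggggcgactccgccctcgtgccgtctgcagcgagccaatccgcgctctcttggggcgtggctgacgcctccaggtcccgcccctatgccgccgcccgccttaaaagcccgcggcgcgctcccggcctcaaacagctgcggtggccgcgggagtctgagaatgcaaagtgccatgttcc
Btg2 (chr1:134079106-134079405, minus strand): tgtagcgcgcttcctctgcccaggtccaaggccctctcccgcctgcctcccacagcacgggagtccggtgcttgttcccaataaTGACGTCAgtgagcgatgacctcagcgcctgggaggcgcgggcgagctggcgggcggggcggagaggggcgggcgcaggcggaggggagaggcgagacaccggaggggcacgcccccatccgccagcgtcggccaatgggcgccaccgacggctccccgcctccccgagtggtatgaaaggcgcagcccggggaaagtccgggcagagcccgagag
Of the 379 genes tested with the full element in a window, 27 were nominally higher and 28 nominally lower, as against 7.49% and 8.03% of all genes. Windows were given for only 77.5% of genes tested, so the count leaves out the rest.

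**Figure D4:**
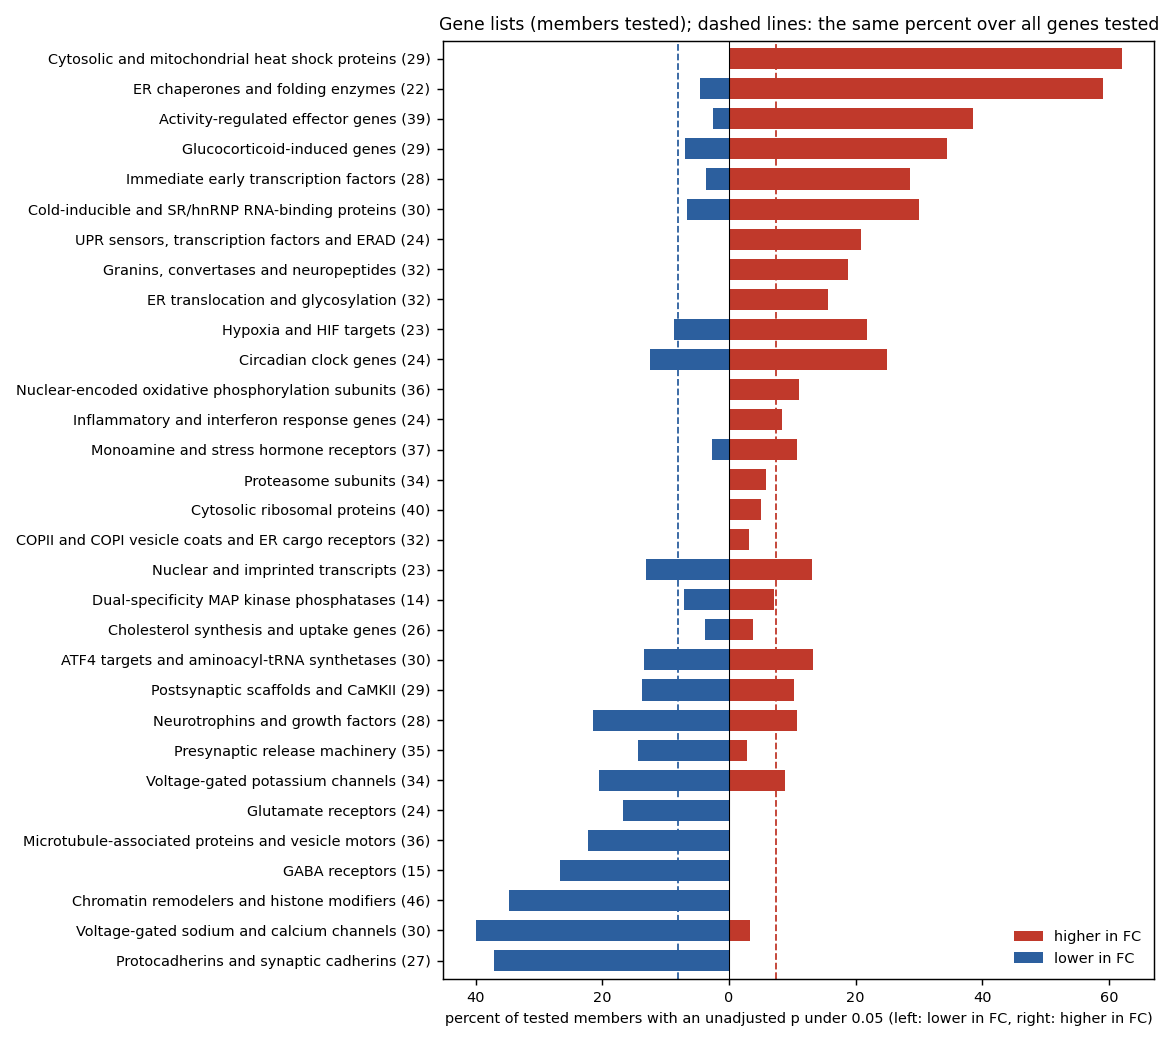
For each gene list, with the number of members tested, the percent of members that were nominally higher (right) or nominally lower (left) in FC. Dashed lines mark the same percent over all genes, 7.49% higher and 8.03% lower, and heat shock proteins and ER chaperones stand out on the right and channel, cadherin and chromatin genes on the left.

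Of 32 granins, convertases and neuropeptides, 30 had a log2 difference above 0, as against 7622 of 13493 genes, and 24 did so without HC libraries 1 and 2. In the list 6 were nominally higher with 0 nominally lower (median 0.09). Pnoc, the precursor of nociceptin, was at 2.47 to 2.96 FPKM (median 2.70) in HC and at 2.99 to 4.47 FPKM (median 3.45) in FC, with no overlap and an adjusted p of 0.0833. Nts, which encodes neurotensin, was at 5.76 to 9.22 FPKM in HC and 6.57 to 13.8 FPKM in FC, Crh, the corticotropin-releasing hormone, was at 1.96 to 2.90 FPKM in HC and 2.68 to 5.37 FPKM in FC, and Vgf, a secreted precursor induced by neurotrophins, was at 70.2 to 83.5 FPKM in HC and 78.3 to 116 FPKM in FC. These 3 overlapped between groups and had adjusted p of 0.109, 0.128 and 0.134.

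Markers of GABA neurons and of the central nucleus were counted in the same way. The central nucleus list shares Nts, Crh and Tac2 with the peptide list, so the 2 lists are not separate evidence. Of 10 markers of inhibitory neurons 2 were nominally higher and 0 lower (median 0.17), with Gad1, a synthetic enzyme of GABA, at 79.2 to 98.9 FPKM in HC and 89.8 to 110 FPKM in FC (adjusted p = 0.0942), and Lhx6 at a log2 difference of 0.23. Of 11 markers of central amygdala and intercalated neurons 4 were higher and 0 lower (median 0.17), namely Nts, Crh, Cyp26b1 at 0.43 and Tac2 at 0.61. Without FC library 3 both counts were 6 higher, and without HC library 3 that of the central nucleus was 2 higher. The summed level of these 11 markers was 122 to 149 FPKM (median 134) in HC and 119 to 193 FPKM (median 164) in FC. The part of the punch's position in the peptide values was not tested. Of 13 markers of the striatum, which borders the amygdala, 0 were nominally higher or lower in limma, and their sum was 123 to 359 FPKM in HC and 128 to 370 FPKM in FC. Without HC libraries 1 and 2 their median log2 difference was -0.33, and with the score of long transcripts it was 0.63. This wide spread between libraries means that the 0 does not show equal striatal tissue in the groups.

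Of 29 glucocorticoid-induced genes 10 were nominally higher and 2 nominally lower (median 0.07). The count was 8 higher and 3 lower without HC libraries 1 and 2, and 10 and 0 with the score of long transcripts. Tsc22d3, which encodes the glucocorticoid-induced leucine zipper GILZ, was at 13.1 to 18.1 FPKM (median 14.3) in HC and at 17.1 to 21.9 FPKM (median 20.7) in FC, with 1 HC library inside the FC range. Plin4, a coat protein of lipid droplets, was at 0.198 to 0.871 FPKM (median 0.287) in HC and 0.665 to 0.926 FPKM (median 0.807) in FC, the largest log2 difference of the list at 1.04, and HC library 3 alone lay among the FC values. Gjb6, a gap junction protein of astrocytes, and Sult1a1 were at 0.48 and 0.42. Of 24 clock genes 6 were higher and 3 lower. The clock count was 7 higher and 3 lower without HC libraries 1 and 2, and 7 and 0 with the score. Per2 was at 5.64 to 7.90 FPKM in HC and 7.28 to 10.3 FPKM in FC, the PAR-domain factor Hlf was at a log2 difference of 0.14, and Arntl2, a partner of CLOCK, was at -0.46 (adjusted p = 0.0833). The study's text states that HC mice were killed at a matched time of day, and clock times of single libraries were not analysed here.

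Genes of glucose use and of the response to low oxygen were higher in part. Of 23 such genes 5 were nominally higher and 2 nominally lower, with 9 higher without FC library 5, and 4 passed an adjusted p of 0.10. Pfkfb3, which makes the activator of glycolysis fructose-2,6-bisphosphate, was at 3.64 to 4.64 FPKM (median 4.38) in HC and at 4.66 to 6.31 FPKM (median 5.39) in FC with no overlap. Slc2a1, the glucose transporter of the blood-brain barrier, was at 20.6 to 26.8 FPKM in HC and 25.1 to 28.3 FPKM in FC. Mxi1, an antagonist of Myc, and P4ha1, a collagen prolyl hydroxylase, were at 0.17 and 0.34. Of 10 markers of endothelial cells 3 were higher and 1 lower, Slc2a1 being among the 3 with Ly6c1 at 0.27 and Esam at 0.12, and Slco1a4 was lower at -0.16.

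RNA-binding proteins that regulate splicing had a larger share on the higher side. Of 30 cold-inducible, SR and hnRNP proteins 9 were nominally higher and 2 nominally lower (median 0.04). Tra2a was at 30.3 to 37.1 FPKM (median 34.9) in HC and at 38.4 to 46.8 FPKM (median 43.8) in FC, a log2 difference of 0.33 with SE 0.06 and no overlap. Its relative Tra2b was at 0.18, Hnrnpm at 0.13 with no overlap, and Srsf7 at 0.17. With the score of long transcripts as a covariate the count was 2 higher and 6 lower, and Tra2a was at 0.25.

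Genes on the lower side encoded longer transcripts. The longest annotated transcript of the 210 genes lower at an adjusted p under 0.10 had a median of 7784 bases, and 49 of the 207 with a length exceeded 10 kb (23.7%), while the 110 higher genes had a median of 3371 bases and 0 over 10 kb, and all genes tested had a median of 3435 bases and 2.46% over 10 kb. Transcript length and group cannot be told apart in the lists that follow. The counts of channels, receptors, chromatin regulators, cadherins, motors, synaptic genes and growth factors are therefore given also without HC libraries 1 and 2. They are also given with the score of long transcripts as a covariate. Over all 13493 genes, 964 were nominally higher and 610 nominally lower with the score, as against 1010 and 1083 without it. The score comes from the same libraries, and members over 10 kb are part of it. A count with the score is therefore not a test of a list.

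Voltage-gated sodium and calcium channels were the channel group with most lower members. Of 30, 12 were nominally lower and 1 nominally higher, with a median log2 difference of -0.08, a median longest transcript of 8076 bases and 5 members over 10 kb. Scn3a, a sodium channel prominent in immature neurons, was at 5.24 to 6.91 FPKM (median 6.36) in HC and at 4.49 to 4.94 FPKM (median 4.85) in FC with no overlap and an adjusted p of 0.0762. Scn2a1 was at 31.6 to 43.7 FPKM in HC and 27.7 to 31.7 FPKM in FC, an overlap at the edge. Cacna1e, the R-type calcium channel, and Ryr2, a calcium release channel, were at -0.57 and -0.40. The list had 13 lower and 1 higher without HC libraries 1 and 2, and 1 lower and 2 higher with the score.

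Of 34 potassium channels 7 were nominally lower and 3 nominally higher, with 9 lower and 3 higher without HC libraries 1 and 2, and 2 lower and 4 higher with the score. Kcnh7, Kcna3, Kcnma1 and Kcnq3 were at -1.44, -0.75, -1.04 and -1.43, and with the score at -0.12, -0.08, -0.07 and -0.05. Kcnma1, the large-conductance potassium channel opened by calcium, was at 5.67 and 5.68 FPKM in HC libraries 1 and 2, at 15 to 17.4 FPKM in HC libraries 3 to 6 and at 4.89 to 6.15 FPKM in FC. In each of these 4 genes HC libraries 1 and 2 lay at or near the FC values.

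Of 24 glutamate receptors 4 were nominally lower and 0 higher. Grm5, the metabotropic receptor mGluR5, was at 27.7 to 31.5 FPKM in HC and 22.6 to 27.7 FPKM in FC, and Gria2, the AMPA receptor subunit that blocks calcium entry, was at 118 to 139 FPKM in HC and 103 to 119 FPKM in FC. Grin2a, an NMDA receptor subunit, was at 0.669 and 0.733 FPKM in HC libraries 1 and 2, at 2.22 to 2.95 FPKM in HC libraries 3 to 6 and at 0.370 to 0.654 FPKM in FC, a log2 difference of -1.51 with no overlap. Its relative Grin2b was at 0.592 and 0.715 FPKM, then 6.88 to 8.76 FPKM, and 0.606 to 0.776 FPKM in FC, so that HC library 1 lay under every FC library. Without HC libraries 1 and 2 the list had 5 lower and 0 higher, and with the score 2 lower and 3 higher.

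Of 15 GABA receptors 4 were nominally lower and 0 higher, among them Gabrb2, with Gabrg3 at -0.88 and Gabrb1 at -0.53. The count was 5 lower and 1 higher without HC libraries 1 and 2 and 3 lower and 0 higher with the score, where Gabrg3 and Gabrb1 turned to 0.06 and 0.05. Of 37 receptors of monoamines, peptides and stress hormones 4 were nominally higher and 1 nominally lower, as against 3 and 3 both without HC libraries 1 and 2 and with the score. Adra1a, the alpha-1A adrenergic receptor, was at 0.909 to 2.08 FPKM in HC and 0.589 to 0.909 FPKM in FC, and the tachykinin receptors Tacr3 and Tacr1 were at 0.52 and 0.32.

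Chromatin regulators held the longest transcripts of any list, with a median of 8612 bases and 17 of 46 over 10 kb. Of the 46, 16 were nominally lower and 0 higher (median -0.07). Kdm6a, which removes methyl groups from histone H3 lysine 27, was at 4.89 to 5.85 FPKM (median 5.58) in HC and at 4.17 to 4.83 FPKM (median 4.40) in FC with no overlap and an adjusted p of 0.0762. The remodeler Chd1, the PBAF subunit Pbrm1 and the demethylase Kdm5a were at -0.31, -0.25 and -0.32. Without HC libraries 1 and 2 the count was 20 lower and 0 higher, and with the score of long transcripts it was 2 lower and 1 higher. Of 27 protocadherins and synaptic cadherins 10 were lower and 0 higher, led by Fat4 at 1.31 to 1.55 FPKM in HC and 0.800 to 1.38 FPKM in FC and by Pcdh7, Pcdh9 and Cdh6 at -0.27, -0.17 and -0.75, and the count was 9 lower and 2 higher without HC libraries 1 and 2, 2 lower and 2 higher with the score, and 5 lower without FC library 1.

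Of 36 microtubule-associated proteins and motors 8 were nominally lower and 0 higher, with Dcx the 1 call and Kif1b, Macf1 and Myo5a at -0.24, -0.32 and -0.28, and 5 were lower without HC library 4. Without HC libraries 1 and 2 the count was 10 lower and 1 higher, and with the score it was 1 lower and 6 higher. Of 35 presynaptic genes 5 were nominally lower and 1 nominally higher, with 8 lower and 1 higher without HC libraries 1 and 2, and 1 lower and 4 higher with the score. Dmxl2, Erc2 and Pclo were at -0.39, -0.18 and -0.37, and with the score at -0.06, -0.08 and 0.08.

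Of 29 postsynaptic scaffolds 4 were nominally lower and 3 nominally higher, with 6 lower and 2 higher without HC libraries 1 and 2, and 1 lower and 4 higher with the score, and Homer1, whose short form is induced by activity, was on the higher side at 0.39 while Homer2 was at -0.22, Cnksr2 at -0.26 and Dlgap4 at 0.15. Of 28 neurotrophins and growth factors 6 were nominally lower and 3 nominally higher, 6 and 3 also without HC libraries 1 and 2, and 2 lower and 4 higher with the score. Nrg1, the ligand of ErbB receptors, was at 1.25 to 1.80 FPKM (median 1.48) in HC and at 0.915 to 1.21 FPKM (median 1.05) in FC with no overlap, and Fgf14, which binds sodium channels, was at 9.41 to 12.7 FPKM in HC and 8.48 to 9.40 FPKM in FC, also without overlap.

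Some of the largest differences on the lower side were in genes with separate levels among HC libraries, which were picked out after the values were seen. A search of the 12337 genes whose mean reached 1 FPKM for a gap of over 1 log2 unit within the HC group found 102 genes. In 40 of these HC libraries 1 and 2 lay under the gap and HC libraries 3 to 6 above it, and in 38 of the 40 all 6 FC libraries lay under it too. Zbed6, a transcription factor derived from a DNA transposon, was at 0.570 and 0.619 FPKM in HC libraries 1 and 2, at 6.17 to 7.70 FPKM in HC libraries 3 to 6 and at 0.226 to 0.620 FPKM in FC. Lnpep, the aminopeptidase that cleaves oxytocin and vasopressin, was at 0.614 and 0.678 FPKM, then 4.69 to 6.29 FPKM, and 0.379 to 0.681 FPKM in FC. Erbb4, the receptor of Nrg1 on GABA neurons, was at 0.340 and 0.546 FPKM, then 3.56 to 4.43 FPKM, and 0.326 to 0.555 FPKM in FC. HC libraries 1 and 2 lay at or near the FC levels in these 3 genes and far from the other HC libraries.

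The 40 genes also held the extracellular matrix gene Tnr, the ubiquitin ligases Mib1 and Cbl, the adhesion genes Cntnap5a, Cntnap5b, Cntnap5c and Tenm1, and the clock gene Rora. Their longest transcripts had a median of 10876 bases, and 24 of 40 exceeded 10 kb. Log2 differences between FC and HC were -2.74 to -0.45 (median -1.30), and 0 of 40 passed an adjusted p of 0.05, 24 passed 0.10 and 38 were nominally lower in limma. Without HC libraries 1 and 2 the median was -1.81 and 39 passed 0.05, and with the score of long transcripts the median was -0.09. Neither value is a test of these genes. They were picked for low values in HC libraries 1 and 2, so a wider difference without these 2 follows from the choice. The score comes from the same libraries, and the 24 genes over 10 kb are part of it. Over the whole table the count went from 2 past an adjusted p of 0.05 to 73 higher and 506 lower without HC libraries 1 and 2. A gap of this kind in FC was found in 76 genes, and the FC libraries on its low side were not the same from gene to gene.

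**Figure D5:**
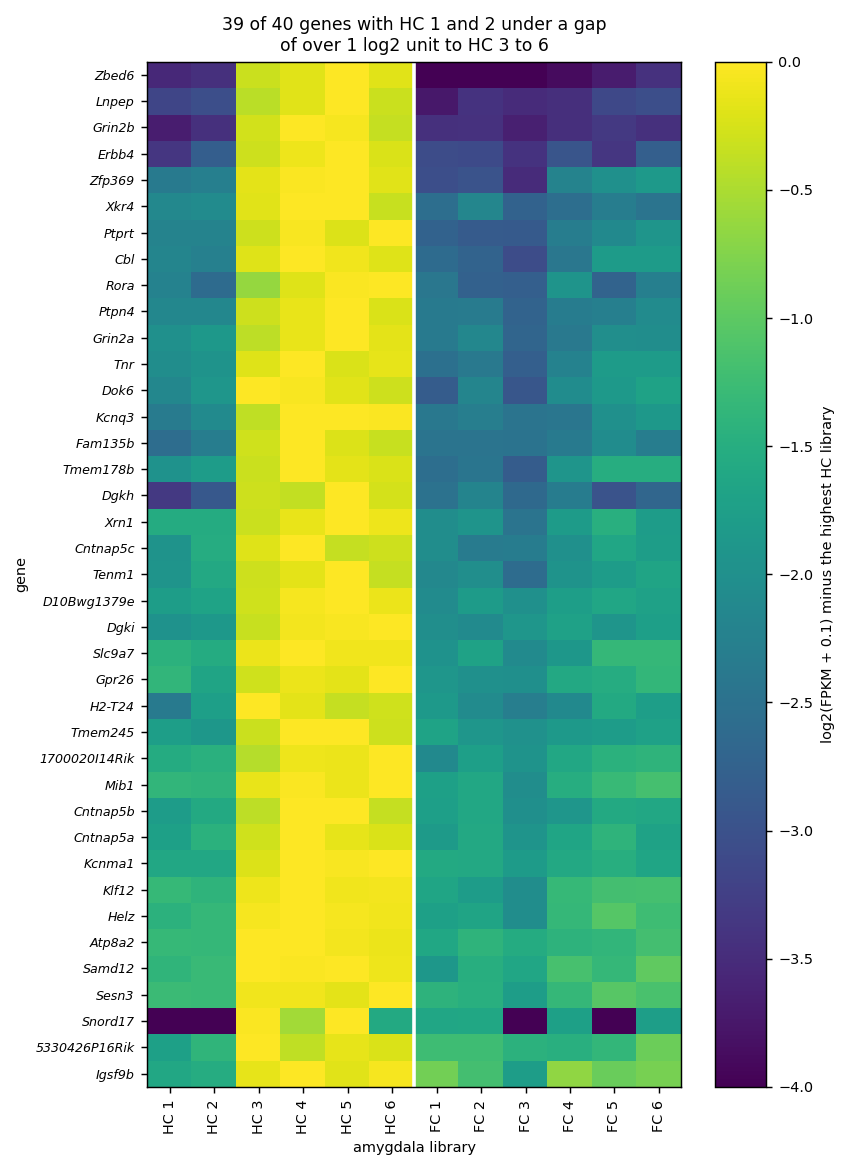
Heatmap of 39 of the 40 genes (rows) in the 12 amygdala libraries (columns), colored by log2(FPKM + 0.1) minus the value of the highest HC library. HC libraries 3 to 6 are bright, except HC library 6 in Snord17, and HC libraries 1 and 2 are dark like the 6 FC libraries, with Igsf9b and Snord17 as exceptions in part of the FC libraries. Differences beyond the end of the color scale take its darkest color.

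Imprinted and nuclear transcripts gave the most extreme entry of the table. The entry that joins Meg3 to Mir1906-1 and Mir770 was at 508 to 622 FPKM (median 589) in HC and was listed at 0 in all 6 FC libraries, and Meg3 is an abundant noncoding RNA of neurons. A listed 0 can be a failed estimate of a merged entry, so no fold is given, and the entry counted as lower at an adjusted p of 1.35e-22. Neighbours in the same imprinted cluster on chromosome 12 did not share it, chosen for their position after the values were seen. Rian was at 112 to 142 FPKM in HC and 125 to 147 FPKM in FC, the merged entry of Mirg with Mir369, Mir410 and Mir412 was at 9.23 to 12.2 FPKM in HC and 11.6 to 13.1 FPKM in FC, and Dlk1 was at 2.06 to 7.53 FPKM in HC and 2.28 to 7.53 FPKM in FC.

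Of 23 nuclear and imprinted transcripts tested 3 were higher and 3 lower (median 0.04). The count was 6 higher and 4 lower without HC libraries 1 and 2, and 2 higher and 2 lower with the score of long transcripts. Ube3a, a ubiquitin ligase expressed from the maternal allele in neurons, was at 6.5 to 13.4 FPKM in HC and 4.84 to 6.26 FPKM in FC with no overlap. Neat1, the scaffold of paraspeckles, was at 18.2 to 24.7 FPKM in HC and 22.8 to 29.6 FPKM in FC, while Malat1 was at -0.80, and C230091D08Rik was at 0.15. The imprinted gene Peg3 and its antisense partner Peg3os lay on opposite sides. Peg3os was at 9.86 to 25.2 FPKM (median 15.8) in HC and at 23.6 to 32.3 FPKM (median 26.5) in FC, a log2 difference of 0.81 with an adjusted p of 0.0762, and Peg3 was at 24.4 to 44.2 FPKM (median 40.6) in HC and at 20.2 to 32.5 FPKM (median 26.8) in FC, a log2 difference of -0.42 with an adjusted p of 0.217. The kit did not mark strand, so reads of the pair cannot be told apart, and HC libraries 1 and 2 lay within the FC range in Peg3 and HC library 2 alone did so in Peg3os.

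Of 40 cytosolic ribosomal proteins 2 were nominally higher and 0 lower, of 36 nuclear-encoded subunits of oxidative phosphorylation 4 and 0, and of 34 proteasome subunits 2 and 0, and with median-ratio scaling these counts were 0, 1 and 0 higher. Single libraries set them too, with 9 subunits of oxidative phosphorylation higher without FC library 5 and 0 without HC library 3. Log2 differences were above 0 in 37 of 40, 36 of 36 and 28 of 34 members, as against 7622 of 13493 genes, and with quantile normalization in 23, 24 and 18 members, as against 7411 genes. Rpl6 and Rps4x were at 0.06 and 0.07, Ndufb5 at 0.12 and Psme3 at 0.08. Of 30 targets of ATF4 and aminoacyl-tRNA synthetases 4 were higher and 4 lower, with Ddit4, an inhibitor of mTORC1, at 14.2 to 21.5 FPKM in HC and 12.4 to 14.4 FPKM in FC. Of 26 cholesterol genes 1 was higher and 1 lower, with Pmvk at 0.17. Of 24 inflammatory and interferon genes 2 were higher and 0 lower, Irf9 at 0.27 and Ifit3 at 0.21.

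Of 10 astrocyte markers Gjb6 was nominally higher and Slc1a2, the main glutamate transporter, nominally lower at -0.12, and Aqp4 and Aldh1l1 were at -0.11 and 0.08. Of 10 oligodendrocyte markers 2 were nominally higher, Mobp at 0.30 and Ermn at 0.23 (5 without FC library 5), and of 8 markers of oligodendrocyte precursors 0 were nominally higher or lower in limma. Of 10 microglial markers 2 were lower, P2ry12, a receptor of microglial processes, at 11.1 to 13.4 FPKM in HC and 10.3 to 11.8 FPKM in FC, and Siglech at -0.21. The microglial count was 4 lower and 0 higher without HC libraries 1 and 2, and 0 lower and 3 higher with the score of long transcripts. Of 9 mural markers 3 were lower and 2 higher, with Abcc9 at 0.773 to 0.973 FPKM in HC and 0.613 to 0.764 FPKM in FC and Pdgfrb at -0.15, neither with overlap, and Tagln and Acta2 at 0.32 and 0.43. The mural count was 2 lower and 2 higher without HC libraries 1 and 2, and 0 lower and 0 higher with the score. Markers of choroid plexus (13), ependyma (8), leptomeninges (8), blood cells (4) and pituitary (2) had 0 members nominally higher or lower in limma, and 1 of 10 markers of hypothalamus and thalamus, Rora, was lower.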

How the data were processed

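The authors prepared poly-A selected TruSeq libraries from RNA with an integrity number of 9 or more, used STAR 2.3 for alignment to the mm10 genome, and made the deposited FPKM values with Cufflinks and Cuffdiff 2.1.1. The deposited sequence counts and percent of uniquely mapped reads (91.73 to 92.3%) describe each library. In 272 of 23303 entries overlapping genes share 1 value. Depth behind a single FPKM is unknown, so no counting interval is given. Lanes and extraction dates of single libraries are not given in the sources used here, so no within-batch value could be computed.

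A linear model was run in limma 3.58.1 (R 4.3.3) on log2(FPKM + 0.1) of the 12 libraries, with a variance trend and no covariate, keeping genes whose mean reached 0.5 FPKM. This scale understates changes of low genes. Tests are two-sided, with Benjamini-Hochberg adjustment over 13493 genes and a threshold of 0.05. Exact permutation used all 924 divisions of the libraries. In simulated data for this comparison over 13493 genes, 81% of log2 changes of 0.5 and 99% of changes of 1 were called. Of 13293 unchanged genes in the simulated data, 6 were called. The share of such changes that is called in the 12 libraries themselves was not tested. There, the 40 genes with separate HC levels had a median log2 difference of -1.30, and 0 passed an adjusted p of 0.05 in limma. Lengths and positions are from GENCODE vM21 on GRCm38 (97.9% of genes tested), promoters from RefSeq.

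Members, gene lists and tests were chosen with earlier results of these data known. Named genes are those past the threshold, the 12 genes per direction with the smallest p whose groups do not overlap and whose mean reached 1 FPKM, and up to 4 members per list by p. Peg3, Peg3os, Rian, Dlk1, Mirg, Igsf9b, Snora2b and the genes with separate HC levels were named after their values were seen. The score of long transcripts is a library's mean deviation over genes with a longest transcript over 10 kb. The study's own comparison columns and supplementary values were not used. Some genes that the rule names are not reported here.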

Additional observations from a re-analysis of the deposited data

Results flagged for a closer look

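In 24 of 428 groups of 6 libraries, over 214 genes searched, the highest or lowest library stood apart by Dixon's criterion, which chance gives in about 1 of 20 groups. The causes were not tested.

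FC library 6 stood highest for the pituitary hormone genes Gh at 14.3 FPKM and Pomc at 12.9 FPKM, and lowest for Lmo3 at 69.4 FPKM. FC library 5 stood highest for Arntl2 at 2.29 FPKM, Gjb6 at 14.2 FPKM, Fat4 at 1.38 FPKM, Pcdh7 at 15.4 FPKM and Aldh1a2, a leptomeningeal gene, at 1.18 FPKM, and lowest for Psme3 at 34.4 FPKM. FC library 3 stood highest for Mcfd2 at 36.2 FPKM and Psmd8 at 55.7 FPKM, and lowest for Gad1 at 89.8 FPKM and C230091D08Rik at 8.27 FPKM. FC library 1 stood highest for Mfsd2a at 10.2 FPKM and the merged entry of Mirg at 13.1 FPKM, and lowest for Erc2 at 23.8 FPKM.

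Among HC libraries, library 6 stood highest for Btg2 at 8.17 FPKM and Pdgfrb at 3.97 FPKM, and lowest for Mfsd2a at 5.53 FPKM and S100a8, listed at 0. HC library 1 stood highest for Slc6a13 at 1.66 FPKM and Aldh1a2 at 1.03 FPKM, and lowest for Erc2 at 27.3 FPKM. HC library 3 stood highest for Plin4 at 0.871 FPKM.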

How the results depend on the processing

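The count of genes past an adjusted p of 0.05, 0 higher and 2 lower in FC, was the same under pseudocounts of 1 and 0.01, minimum means of 1 and 0.1 FPKM, median-ratio scaling and a fit with the third amygdala group. It was 0 higher and 4 lower with quantile normalization, 0 higher and 1 lower with no minimum, without the variance trend or with the score of long transcripts, 76 higher and 299 lower with array weights, 73 higher and 506 lower without HC libraries 1 and 2, and 110 higher and 210 lower at an adjusted p under 0.10. Leaving out 1 library gave 0 to 45 higher and 1 to 326 lower, with 45 and 326 without HC library 1, 13 and 100 without HC library 2, 27 and 11 without HC library 3 and 1 and 5 without FC library 5. The cause was not tested. With the replicate number of the titles as a replicate block it was 11 higher and 33 lower, but same-numbered libraries deviated together with correlations of -0.254 to 0.022, so the numbers do not pair them. Named genes kept their direction under each scaling, pseudocount and filter. Of 214, 24 turned with the score of long transcripts and 4 without HC libraries 1 and 2. With array weights 1 turned, and 0 to 4 turned without a single library. Named genes whose groups do not overlap could not turn when libraries were left out. Single values rest on 6 pools per group. The limma p sets a difference against the spread between pools, moderated by the variance trend over genes, and not against that between single mice.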
